A study of Mus musculus with 62 samples.

Results

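Hearts of mice bearing a melanoma that causes wasting were compared with hearts of mice bearing a melanoma that does not, 6 weeks into the experiment. The comparison takes 10 of the 62 heart RNA-seq libraries of the series: the 5 whose column names end in CAC6wk without a preceding N (the cachectic arm, CAC) and the 5 whose names end in NCAC6wk (the non-cachectic arm, NCAC). The members were chosen by these labels alone, and all genes were then described after the libraries were brought to a common scale. The 5 mock-treated hearts of week 6 (Con) are given beside them, and weeks 2, 4 and 8 serve only to place the week 6 difference in time. Every mouse was female and 2 months old per the labels. CAC mice received cachectic melanoma cells, NCAC mice non-cachectic melanoma cells, and Con mice a mock treatment. The sample labels name the strain C57BL6/J, whereas the design text of the series names NCI Ath/nude mice, and the sources used here do not settle which is right. The labels call the 5 libraries of a group biological replicates, each from its own heart. Both arms carry a tumour but of different melanoma cells, so an effect of wasting and an effect of the cells injected cannot be told apart, and no body weight or tumour size is given in the labels used here.

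Cachexia is a loss of muscle and fat in chronic disease that feeding does not reverse. Cytokines of the interleukin-6 family act through receptors that share the gp130 chain (Il6st), switch on the kinase JAK and the transcription factor STAT3, and raise secreted acute-phase proteins together with Socs3, which feeds back on the receptor. The heart draws its energy chiefly from fatty acids burnt in mitochondria, and strained cardiomyocytes are known to turn on stress genes such as the natriuretic peptides.

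The tissue label was checked against its markers: the cardiomyocyte list summed to 28881 to 34844 rescaled TPM (a level per transcript length) in CAC hearts and to 30514 to 36798 in NCAC hearts. The atrial myosin light chains Myl7 and Myl4 and sarcolipin (Sln) stayed below the filter described below. They were at most 0.512, 0.742 and 0.251 rescaled TPM, while Nppa of the same atrial list was above it. Whether atria were part of the samples was not tested. The T cell genes Cd3d and Cd8a were at most 0.0652 rescaled TPM. Cd3e read 0.218 to 0.673 in CAC and 0.0319 to 0.101 in NCAC hearts, below the filter and not tested. Mitochondrially encoded transcripts took 51.2% ± 1.77 (SD, n = 5) of all TPM in CAC hearts and 57.7% ± 2.40 (n = 5) in NCAC hearts, with no overlap (exact permutation test, two-sided, p = 0.00794, the smallest value that 5 against 5 libraries allow). The size of single-read steps gave a relative measure of reads per transcript length. It depends on the make-up of a library as well as on its depth. The measure was 0.926 to 1.01 in CAC and 1.07 to 1.09 in NCAC libraries (exact permutation p = 0.00794). It therefore moved with the arm, and sequencing depth itself is not known. The part of depth in the results was not tested.

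Of 11801 genes with at least 1 rescaled TPM in at least 5 of the 10 libraries, 2490 (21.1%) were higher and 2419 (20.5%) lower in CAC than in NCAC hearts at an adjusted p below 0.05 (limma on log2(rescaled TPM + 1), Benjamini-Hochberg over all 11801 genes), 41.6% in all. The counts of list members given below are to be read beside the 21.1% and 20.5%. Called differences of at least 2-fold made up 2.14% of genes upward and 1.05% (124 genes) downward. The 5 values of each arm did not overlap in 3374 genes (28.6%), of which 3312 were also called. The rises reached much further than the falls, from a log2 difference of 7.92 for Serpina3n down to -2.78 for Aplnr among the genes named by the fixed rule. Differences are on the log2(rescaled TPM + 1) scale throughout, which understates the change of genes near or below 1 TPM. Because 5 libraries suffice, a low gene can pass the filter through the arm where it is high. Counts in lists of low genes rest in part on this. In RNA from a tissue of many cell types a lower value can come from fewer cells of a type or from less RNA per cell. These cannot be told apart.

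**Figure D1:**
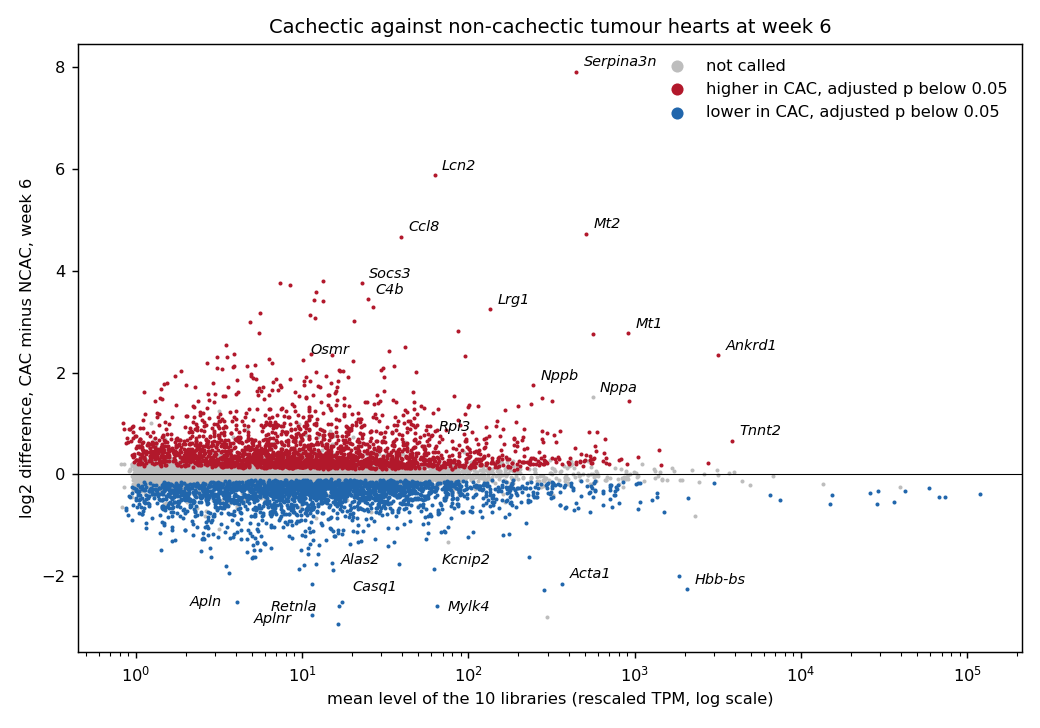
Each point is 1 of 11801 genes, with its mean level over the 10 libraries on a log axis (rescaled TPM) and its log2 difference of CAC minus NCAC at week 6 on the vertical axis. Red and blue points are the 2490 genes higher and 2419 lower in CAC hearts at an adjusted p below 0.05, and Serpina3n stands highest at a log2 difference of 7.92.

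The common scale decides the balance of the smaller differences. Median-of-ratios rescaling put the median difference of all genes at 0.01. On the TPM as deposited it was 0.20, and 5473 genes were called higher against 812 lower, so that 87.1% of calls were upward in place of 50.7%. TPM adds to a fixed total in each library, and mitochondrially encoded transcripts hold a smaller share of it in CAC hearts. Counts on deposited TPM are therefore given for the gene groups whose balance of calls turned with the scaling, and the plot of list medians under 3 scalings shows the same for 23 groups.

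**Figure D2:**
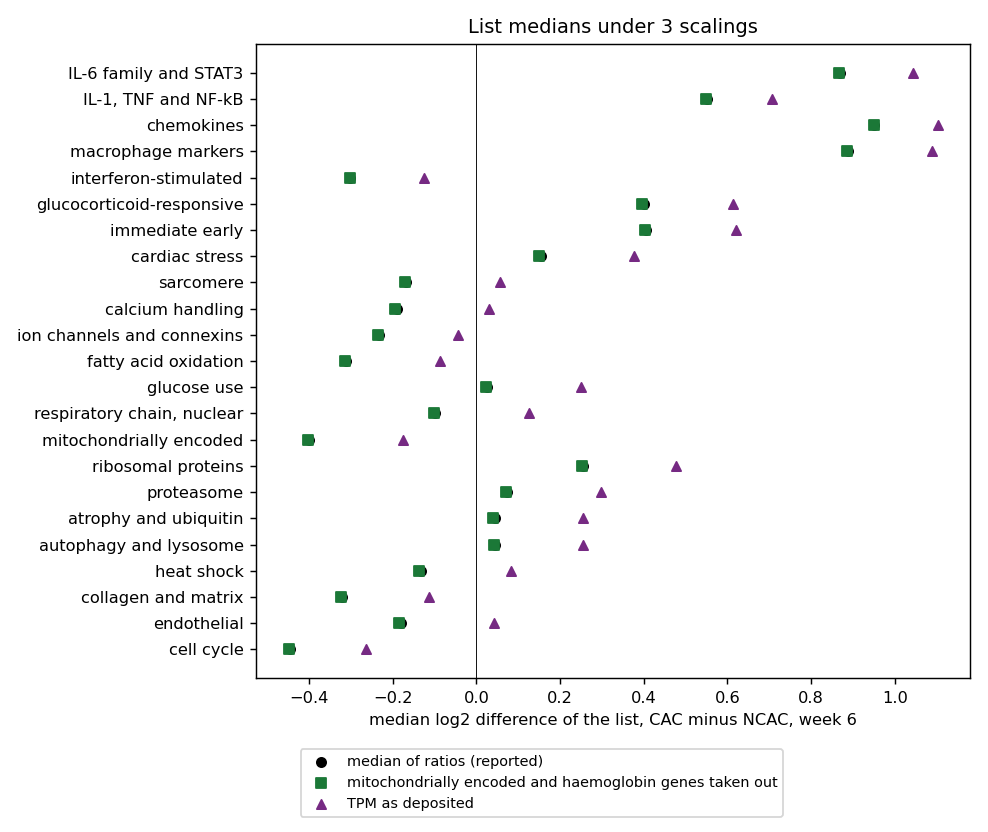
Each row is a gene list, and the horizontal axis is the median log2 difference, CAC minus NCAC at week 6, of its tested members under 3 scalings. The medians on deposited TPM lie to the right of the others by about the shift of all genes (0.20), which takes the sarcomere, calcium handling, respiratory chain, heat shock and endothelial medians across 0.

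Secreted acute-phase proteins made up the widest difference between the arms. All 14 acute-phase genes above the filter were called, 13 higher and 1 lower in CAC hearts. Their median log2 difference was 2.95, beside 0.01 for all genes. The other 9 of the 23 listed lay below the filter, among them Saa1, Saa2, Orm1 and the fibrinogen genes. Genes such as Hp, Saa3 and Serpina3m averaged 0.600, 0.364 and 0.0232 rescaled TPM in NCAC hearts. They passed the filter through the CAC hearts alone, so the count of rises and the median rest in part on the filter. Serpina3n (chr12:104406729-104414329, plus strand), a secreted serine protease inhibitor, read 1569.6, 763, 632, 1059 and 419 rescaled TPM in CAC replicates 1 to 5 and 1.98, 2.03, 1.67, 3.96 and 2.43 in NCAC replicates 1 to 5. The lowest CAC heart, at 419, stood far above the highest NCAC heart, at 3.96. Its log2 difference was 7.92 ± 0.31 (SE, adjusted p = 1.25e-07).

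Lipocalin 2 (Lcn2), which binds the iron carriers of bacteria, read 259.6, 124, 84.9, 117 and 39.8 in CAC and 0.714, 0.707, 0.63, 1.11 and 0.866 in NCAC hearts, a log2 difference of 5.88 ± 0.37 (SE, adjusted p = 1.5e-06). Replicate 1 was the highest and replicate 5 the lowest CAC heart for both genes, and neither came near the NCAC range. Itih4, a plasma protein, rose by 3.58 ± 0.18 (SE, adjusted p = 3.65e-07) and the complement component C4b by 3.44 ± 0.14 (SE, adjusted p = 1.35e-07). The complement proteins C3 and factor B (Cfb) rose by 2.33 and 2.12, haptoglobin (Hp), which binds free haemoglobin, by 2.77, and Lrg1 by 3.25. Serpina3i and Serpina3m rose by 3.79 and 3.77, and Serpina3m was at 0 to 0.0600 rescaled TPM in NCAC hearts. Members of the Serpina3 cluster are close copies, so reads may have been divided among them. Saa3 spread most among CAC hearts, with 80.7, 4.43, 7.93, 14.4 and 2.6, against 0.271, 0.65, 0.259, 0.638 and 0 in NCAC hearts, and it was called at 3.13 ± 0.68 (SE, adjusted p = 0.0039).

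Most genes of interleukin-6 family signalling were also higher. Of 17 tested members, 14 were higher and 1 lower, with a median of 0.87. The receptor chains Lifr and Il11ra1 were the 2 not called, at -0.09 and -0.08 (0.11 and 0.14 on deposited TPM). The ligands themselves, Il6, Osm, Lif and Il11, were below the filter in these hearts. The oncostatin M receptor Osmr (chr15:6813577-6874969, minus strand) had the smallest p of all genes: CAC hearts read 18.7, 19.2, 17.8, 16.8 and 14.4 and NCAC hearts 2.51, 3.08, 2.9, 3.19 and 2.61, which differed by 2.25 ± 0.080 (SE, adjusted p = 1.25e-07). The CAC hearts were tightly grouped, at 6.08 times the NCAC mean. Among the shared parts of the pathway, Il6st rose by 0.36, Il6ra by 0.49 and Stat3 by 0.97. The rise of Il6st was 0.57 on deposited TPM. The kinase Jak1 was the lower member, at -0.33, a call lost on deposited TPM (-0.11).

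Socs3, the feedback inhibitor, read 53.3, 38.5, 36.4, 60.1 and 29.8 in CAC and 1.78, 2.6, 2.25, 2.14 and 2.23 in NCAC hearts, a log2 difference of 3.76 ± 0.17 (SE, adjusted p = 1.69e-07). The nuclear regulator Bcl3 rose by 1.71 ± 0.13 (SE, adjusted p = 4.62e-06), the transcription factor Cebpd by 2.22, the kinase Pim1 by 1.27 and the interleukin-4 receptor chain Il4ra by 1.76. Of the interleukin-1 and tumour necrosis factor list, 7 of 12 tested members were higher and none was lower, with a median of 0.55. The receptor Tnfrsf1a rose by 1.43 ± 0.10 (SE, adjusted p = 2.57e-06), the interleukin-1 receptor Il1r1 by 1.17 ± 0.10 (SE, adjusted p = 1.25e-05) and the adaptor Myd88 by 1.07 ± 0.089 (SE, adjusted p = 8.65e-06). The other 6 listed members lay below the filter and were not tested. Of these the ligand Tnf was lower in CAC hearts, at 0.102 to 0.271 against 0.473 to 1.395 in NCAC hearts. Il1rn was higher, at 0.155 to 0.309 against 0.0776 to 0.147.

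The stretch before the Socs3 start is shown because Socs3 is the STAT3 target of the list with the widest difference. It is the RefSeq sequence of build GRCm38.p6 (chr11:117969367-117969530, minus strand), printed 5′ to 3′ with matches to the STAT letters TTCNNNGAA in capitals. It lies before the RefSeq start and before the start of the coding transcript in GENCODE M21 (117969186). GENCODE also holds 2 noncoding transcripts of Socs3 that begin farther upstream, at 117969451 and 117970047, so the stretch lies inside the outer bounds of that gene model.
Socs3: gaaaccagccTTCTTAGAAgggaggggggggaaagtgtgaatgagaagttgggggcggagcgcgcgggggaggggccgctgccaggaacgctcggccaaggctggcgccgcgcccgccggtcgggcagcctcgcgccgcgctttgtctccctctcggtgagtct
Both strands were searched in the 250 bases before each start, and the letters read the same on both. They were found before 531 (6.0%) of the 8914 tested genes that have a promoter in the table, before 3 of 10 acute-phase genes (Serpina3i, Serpina3g and Itih4) and before 2 of 15 interleukin-6 genes (Socs3 and Steap4). A match is a run of letters and not a binding site, and Serpina3n and Osmr held none in this window.

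The metallothioneins Mt1 and Mt2, small proteins that bind zinc and copper, rose. Mt2 read 1687, 735, 802, 1023 and 671 rescaled TPM in CAC and 47.4, 19.7, 31.7, 36.8 and 41.2 in NCAC hearts, a log2 difference of 4.73 ± 0.27 (SE, adjusted p = 8.39e-07). Mt1 read 2348, 1281, 1518, 1490.2 and 1319 and 317, 174, 206, 227 and 232, a difference of 2.77 ± 0.18 (SE, adjusted p = 1.8e-06). No CAC heart overlapped an NCAC heart for either gene, though the pair are near copies and reads may have been divided between them. Zinc importers rose as well: Slc39a1 by 0.87 ± 0.046 (SE, adjusted p = 5.41e-07), Slc39a14 by 1.09 ± 0.081 (SE, adjusted p = 4.42e-06) and Slc39a6 by 0.26 ± 0.063 (SE, adjusted p = 0.00741). No other of the 9 tested members of this list was called, and Mt3, a further metallothionein, differed by -0.23. The rise of Slc39a6 was 0.42 on deposited TPM.

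The stretch before the Mt2 start is shown because Mt2 rose to the highest fold of the metal-binding genes. It is the RefSeq sequence of build GRCm38.p6 (chr8:94172385-94172617, plus strand), with matches on either strand to the metal-response core TGCNCNC in capitals.
Mt2: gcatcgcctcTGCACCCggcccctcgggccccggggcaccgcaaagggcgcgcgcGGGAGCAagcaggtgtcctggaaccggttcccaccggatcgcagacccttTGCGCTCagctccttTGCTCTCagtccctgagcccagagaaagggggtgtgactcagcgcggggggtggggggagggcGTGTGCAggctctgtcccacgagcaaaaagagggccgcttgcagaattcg
Mt2 holds 5 such matches in the 250 bases before its start and Mt1 holds 1. At least 1 match was found before 4727 (53.0%) of the 8914 promoters, so its presence alone is common.

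Most tested chemokine and macrophage genes were higher in CAC hearts. Of the chemokine list, 9 of 15 tested members were higher and 2 lower (median 0.95), and of the macrophage list 18 of 22 were higher and 1 lower (median 0.89). The other 8 listed chemokine genes lay below the filter and were not tested. Among them Ccl5 read 0.192 to 0.417 in CAC and 0.899 to 1.721 in NCAC hearts. Cxcl9 read 0.0145 to 0.118 and 0.482 to 0.844, and Ccl3 0.0547 to 0.174 and 0.180 to 0.404. The arms overlapped in the rest of these low genes. Ccl8, which draws monocytes, read 54.4, 79.6, 120.1, 62.1 and 65.6 in CAC and 1.6, 1.69, 1.62, 4.26 and 1.21 in NCAC hearts, a difference of 4.67 ± 0.25 (SE, adjusted p = 5.41e-07). Ccl6 and Ccl9 rose by 2.43 and 1.91, Cxcl13, which draws B cells, by 3.003, and the receptor Ccr1 by 1.32. Cxcl13 and Ccr1 averaged 0.0870 and 0.811 rescaled TPM in NCAC hearts, and Cxcl13 passed the filter through the CAC hearts alone. Ccl24 and Cxcl1 were the lower members, at -0.30 and -0.54, and both calls were lost in the fit of all 62 libraries (adjusted p = 0.051 and 0.067), that of Ccl24 also on deposited TPM (0.10). Ccl2, the ligand best known for monocyte recruitment, had a difference of -0.40 that was not called, though it was without NCAC replicate 1 (-0.62).

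Among the macrophage genes the haemoglobin scavenger receptor Cd163 read 21.6, 15.2, 17.6, 14.7 and 13.4 in CAC and 4.79, 3.67, 2.61, 5.63 and 3.24 in NCAC hearts, a rise of 1.83 ± 0.17 (SE, adjusted p = 1.59e-05). The mannose receptor Mrc1 rose by 1.56 ± 0.14 (SE, adjusted p = 1.46e-05), the protease Ctss by 1.41 ± 0.083 (SE, adjusted p = 9.72e-07) and F13a1 by 1.64 ± 0.14 (SE, adjusted p = 1.04e-05). The 3 chains of complement C1q (C1qa, C1qb and C1qc) rose by 1.19 to 1.29, and the growth factor receptor Csf1r by 0.80. Summed over the list, levels ran from 640 to 934 in CAC and from 342 to 469 in NCAC hearts. The fall was Retnla, a secreted protein made by alternatively activated macrophages. It read 1.54, 2.23, 2.92, 3.08 and 6.38 in CAC and 19.4, 22.2, 13.5, 83.5 and 11.9 in NCAC hearts, a difference of -2.58 ± 0.47 (SE, adjusted p = 0.00131), with NCAC replicate 4 far above the other NCAC hearts and no overlap between the arms.

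The B cell genes and most class II genes above the filter were lower in CAC hearts. All 3 tested B cell genes fell: the light chain Igkc by 1.39, Ighd by 0.77 and Ighm by 0.58 on the log2 scale, with Igkc at 1.26 to 3.2 in CAC and 5.33 to 11.9 in NCAC hearts. The granzyme Gzma, the sole T and natural killer cell gene above the filter, differed by -1.15 ± 0.19 (SE, adjusted p = 0.000744). Ighd and Gzma averaged 0.510 and 0.445 rescaled TPM in CAC hearts and passed the filter through the NCAC hearts alone. Their direction was therefore set in part by the filter. Of 6 tested class II genes, H2-Ab1 fell by 0.87, H2-Eb1 by 0.92, H2-Aa by 0.77 and the invariant chain Cd74 by 0.75, but H2-Ab1 lay at 6.88 to 15.3 and 15.04 to 32.7, and none of the 4 was called in the fit of 61 libraries over all groups (adjusted p = 0.10 to 0.26). The call of Ighm was also lost in that fit (adjusted p = 0.056). Of 17 class I and antigen-processing genes 2 were higher, 3 lower and 12 not called, below the 21.1% and 20.5% of all genes, and on deposited TPM 5 were higher and 0 lower. The immunoproteasome genes Psmb10 and Psme1 rose by 0.23 and 0.24, and Psmb9, Psmb8 and H2-Q7 were lower at -0.37, -0.26 and -0.77. Of these 5, all but Psme1 lost their calls in the fit of 61 libraries (adjusted p = 0.10 to 0.30), and the list median turned from -0.05 to 0.17 on deposited TPM. Of 4 tested neutrophil genes only the receptor Csf3r was called, at 0.47 ± 0.14 (SE, adjusted p = 0.02), and that call was lost without CAC replicate 1 (log2 difference 0.41, adjusted p = 0.051).

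Interferon-stimulated genes were mixed, with 16 of 35 lower, 5 higher and a median of -0.30 (8 lower and 7 higher on deposited TPM). The antiviral enzyme Rsad2 read 0.813 to 1.67 in CAC and 2.96 to 5.75 in NCAC hearts, a difference of -1.27 ± 0.18 (SE, adjusted p = 0.00023). The guanylate-binding proteins Gbp3 and Gbp4 fell by 1.15 and 1.04, and both belong to a family of close copies. The 5 higher members were Ifi27l2a, Iigp1, Oas2, Irf9 and Stat2, at 1.07, 0.97, 0.67, 0.38 and 0.31. The arms overlapped for Ifi27l2a, Iigp1 and Stat2.

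**Figure D3:**
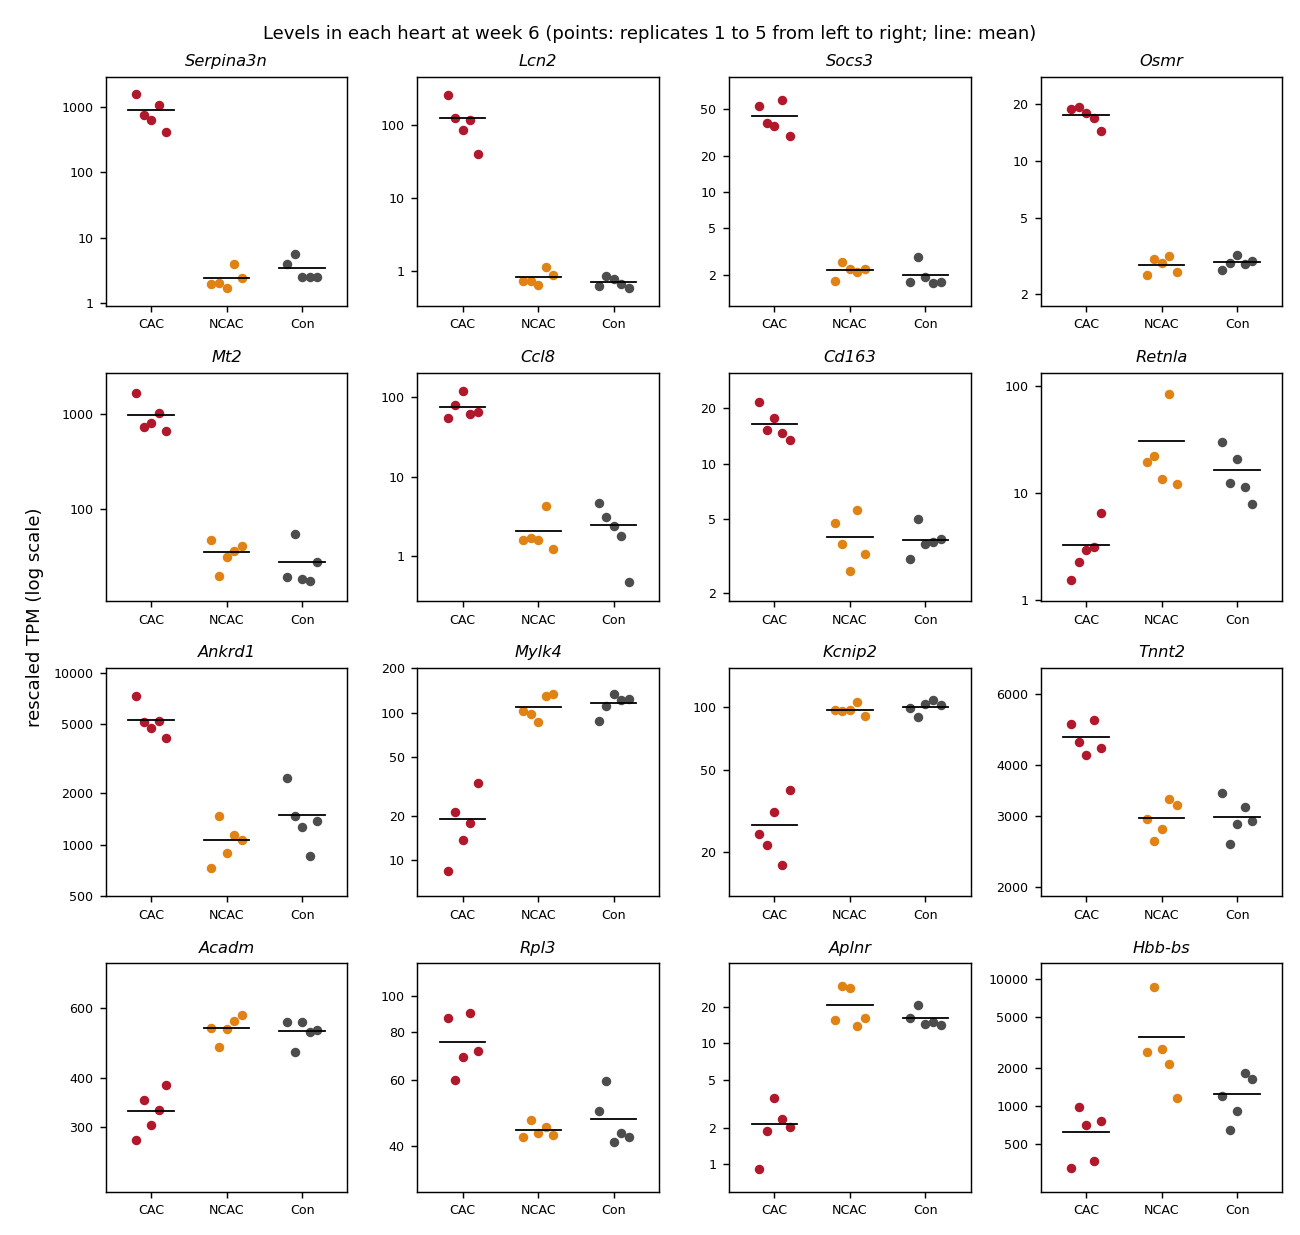
Levels of 16 genes in each heart of week 6 (rescaled TPM, log axis) for CAC, NCAC and Con, with replicates 1 to 5 from left to right and a line at the group mean. The 5 CAC hearts do not overlap the 5 NCAC hearts in any of these panels, as Osmr shows with 14.4 to 19.2 against 2.51 to 3.19.

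Genes that respond to glucocorticoids, and immediate early genes, were more often higher than lower. Of the glucocorticoid list 9 of 21 were higher and 3 lower (median 0.40), beside 21.1% and 20.5% of all genes. Fkbp5, which holds back the glucocorticoid receptor, read 42.1, 15.5, 15.2, 27.7 and 18.2 in CAC and 8.09, 3.03, 3.38, 8.22 and 7.59 in NCAC hearts, a rise of 1.79 ± 0.33 (SE, adjusted p = 0.00139). Hsd11b1, the enzyme that regenerates active glucocorticoid, rose by 1.63 ± 0.14 (SE, adjusted p = 8.53e-06) and the kinase Map3k6 by 1.88 ± 0.21 (SE, adjusted p = 6.39e-05), whereas the receptor Nr3c1 was lower by 0.44, a call lost on deposited TPM (-0.23). Tsc22d3 and Per1, which are also known as glucocorticoid targets, were not called, at 0.39 and 0.40, though Tsc22d3 was on deposited TPM (0.61). Of the immediate early list 10 of 23 were higher and 2 lower (median 0.41), led by the transcription factors Junb (2.08 ± 0.15 (SE, adjusted p = 3.32e-06)) and Myc (1.53 ± 0.15 (SE, adjusted p = 3.02e-05)) and by Ier3 (1.199 ± 0.12 (SE, adjusted p = 3.48e-05)).

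Of 18 circadian genes 4 were higher and 3 lower (median -0.14), near the 21.1% and 20.5% of all genes, and on deposited TPM 6 and 2 (median 0.05). The repressor Nfil3 rose by 1.25 ± 0.28 (SE, adjusted p = 0.00494), while the repressor Bhlhe41 fell by 0.53 (adjusted p = 0.0104), a call lost on deposited TPM (-0.34, adjusted p = 0.051). The clock repressor Nr1d1 read 25.96, 21.1, 3.29, 31.8 and 17.03 in CAC and 34.6, 52.2, 58.8, 33.98 and 51.1 in NCAC hearts, with CAC replicate 3 far below the rest. Its difference was -1.42 ± 0.47 (SE, adjusted p = 0.0305), and -0.92 without that heart. The call was lost in several other fits, among them those without CAC replicate 5 or NCAC replicate 2, 3 or 5 (adjusted p = 0.051 to 0.066).

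Cardiac stress genes moved in both directions. Of 21 tested members 8 were higher and 6 lower (median 0.15, and 12 and 2 on deposited TPM), beside 21.1% and 20.5% of all genes. At least 2-fold differences were found for 4 of the rises and for 1 of the falls, that of Acta1. Ankrd1 (chr19:36111961-36120099, minus strand), a titin-bound protein induced by stretch, read 7294, 5149, 4738, 5215 and 4182 in CAC and 728, 1459, 889.9, 1136 and 1068 in NCAC hearts. That is 5.03 times the NCAC mean, with a log2 difference of 2.34 ± 0.19 (SE, adjusted p = 6.62e-06). Its relative Ankrd2 rose by 1.48 ± 0.12 (SE, adjusted p = 9.04e-06) and the actin crosslinker Actn1 by 0.75 ± 0.065 (SE, adjusted p = 1.15e-05). The B-type natriuretic peptide Nppb read 403, 277, 507, 289 and 379.6 and 60.03, 202, 157, 87.6 and 83.04, a rise of 1.75 ± 0.30 (SE, adjusted p = 0.00103).

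The A-type peptide Nppa could not be called: it read 813, 557, 480.0, 2004 and 137 in CAC and 22.2, 609, 156, 521 and 276 in NCAC hearts, overlapping widely, with a difference of 1.51 ± 0.90 (SE, adjusted p = 0.205). The skeletal actin Acta1, which strained hearts are known to raise, fell: it read 47.8, 109, 112, 172 and 186 in CAC and 366, 1036, 363, 1023 and 242 in NCAC hearts, a difference of -2.15 ± 0.47 (SE, adjusted p = 0.00398). The slow myosin Myh7 differed by 0.15 ± 0.069 (SE, adjusted p = 0.0967) and the adult myosin Myh6 by -0.04 ± 0.13 (SE, adjusted p = 0.822), neither called, and Myh6 was 0.18 on deposited TPM. Myh7 was called in 5 other fits, among them the one on deposited TPM (0.38).

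Contractile and calcium-handling genes included some of the deepest falls. Of 26 sarcomere and contractile genes 10 were lower and 2 higher, with a median of -0.17, but on deposited TPM 6 were lower and 9 higher with a median of 0.06. Mylk4 (chr13:32700834-32783954, minus strand), a kinase of the myosin light chain kinase family, read 8.51, 21.2, 13.7, 17.97 and 33.4 in CAC and 103, 97.7, 86.3, 129 and 134 in NCAC hearts, a difference of -2.58 ± 0.28 (SE, adjusted p = 5.12e-05). Casq1, the calcium store protein of skeletal muscle, read 2.6, 6.47, 2.27, 5.71 and 4.88 and 23.8, 55.3, 21.1, 30.5 and 20.4, a difference of -2.51 ± 0.30 (SE, adjusted p = 9.47e-05). In the other direction the thin filament protein troponin T (Tnnt2) read 4239 to 5159.6 in CAC and 2605 to 3311 in NCAC hearts and rose by 0.66 ± 0.080 (SE, adjusted p = 0.000102), and the Z-disc protein Pdlim5 rose by 0.68 ± 0.063 (SE, adjusted p = 1.64e-05). The cardiac actin Actc1 was lower by 0.51 (adjusted p = 0.0184), with the arms overlapping (5044 to 8602 and 7522 to 10266). That call was lost without the filter, on deposited TPM and in the fits of 61 and 62 libraries (adjusted p = 0.055, 0.095, 0.10 and 0.16).

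Of 19 calcium-handling genes 8 were lower and 1 higher, with a median of -0.19, but on deposited TPM 3 were lower and 7 higher with a median of 0.03. The cardiac calcium store protein Casq2 read 292, 349, 339, 401 and 409.7 in CAC and 512, 543, 510.4, 537 and 547 in NCAC hearts, a difference of -0.57 ± 0.083 (SE, adjusted p = 0.000322). The store-bound protein Hrc fell by 0.61 and the channel subunit Cacna2d1 by 0.42. On deposited TPM these falls shrank to 0.35, 0.38 and 0.20, still called, and the call of Cacna2d1 was lost in the fit of all 62 libraries (adjusted p = 0.056). The calcium pump Atp2a2, the release channel Ryr2 and phospholamban (Pln) were not called, at 0.05, -0.16 and -0.13, but on deposited TPM they stood at 0.27, 0.059 and 0.098, the first and the last called.

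Ion channels moved in both directions, with 12 of 27 lower and 5 higher (median -0.23, and 7 lower and 6 higher on deposited TPM). Kcnip2, the subunit that sets the fast transient outward potassium current, read 24.5, 21.8, 31.4, 17.5 and 40.2 in CAC and 97.4, 95.7, 97.02, 106 and 90.5 in NCAC hearts. Every CAC heart was below the lowest NCAC value, and the difference was -1.86 ± 0.18 (SE, adjusted p = 1.92e-05). Kcnv2 fell by 1.27, the pacemaker channels Hcn2 and Hcn4 by 1.13 and 1.03, and the acetylcholine-gated potassium channel subunits Kcnj3 and Kcnj5 by 0.82 and 0.62 (0.41 for Kcnj5 on deposited TPM). The ventricular gap junction protein Gja1 rose by 0.86 ± 0.10 (SE, adjusted p = 8.87e-05) and the potassium channel Kcnq1 by 1.05.

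Fatty acid oxidation genes were more often lower than higher. Of 39 tested genes 20 were lower, beside 20.5% of all genes, and 3 higher, with a median of -0.31 (16 lower, 7 higher and a median of -0.09 on deposited TPM). Etfdh, which passes electrons from fatty acid oxidation to the respiratory chain, read 106, 121, 113, 114 and 141 in CAC and 207, 173, 179, 188 and 195 in NCAC hearts, a difference of -0.67 ± 0.076 (SE, adjusted p = 6.44e-05). Medium-chain acyl-CoA dehydrogenase (Acadm) read 278, 352, 304, 332 and 383 and 533, 478, 529.9, 557 and 577, a difference of -0.70 ± 0.085 (SE, adjusted p = 9.46e-05). The falls ran through the chain of enzymes, with the trifunctional protein subunits Hadha and Hadhb at -0.61 and -0.65 and Cpt2 of the carnitine shuttle at -0.61.

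The 3 rises stood at the entry and storage of lipid: the lipid droplet protein Plin2 rose by 0.84 ± 0.083 (SE, adjusted p = 2.6e-05), lipoprotein lipase (Lpl) by 0.48 ± 0.057 (SE, adjusted p = 8.44e-05) and the fatty acid carrier Cd36 by 0.20. For Cd36 the rise was 0.42 on deposited TPM and not called in the fit of all 62 libraries (adjusted p = 0.069). The uncoupling protein Ucp3 was lower (-1.31 ± 0.36 (SE, adjusted p = 0.0134)) with the arms overlapping at 5.04 to 24.999 and 20.2 to 53.3. Pdk4, which shuts pyruvate out of mitochondria, was not called (-0.55 ± 0.35 (SE, adjusted p = 0.237)). On deposited TPM the falls of Etfdh, Cpt2, Hadha and Hadhb were 0.44, 0.39, 0.39 and 0.43, each called.

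Of 30 glucose genes 10 were lower and 6 higher, beside 20.5% and 21.1% of all genes, and on deposited TPM 4 and 17. Lactate dehydrogenase A (Ldha) rose by 0.39 ± 0.039 (SE, adjusted p = 2.73e-05) while hexokinase 2 (Hk2) fell by 0.59 and the muscle enolase Eno3 by 0.68. On deposited TPM the rise of Ldha was 0.61 and the fall of Hk2 0.37. Of 59 nuclear-encoded respiratory chain genes 18 were lower and 1 higher with a median of -0.10, but on deposited TPM 3 were lower and 33 higher with a median of 0.13. The muscle form of a cytochrome oxidase subunit, Cox7a1, read 982, 1172, 1103, 996 and 1342 in CAC and 1987, 1565, 1813, 1872 and 2090.0 in NCAC hearts, a difference of -0.74 ± 0.10 (SE, adjusted p = 0.000184). Uqcrfs1 of complex III and Ndufs1 of complex I fell by 0.34 and 0.36, and by 0.11 and 0.14 on deposited TPM, and the call of Ndufs1 was lost in the fit of all 62 libraries (adjusted p = 0.14). Of 13 mitochondrially encoded genes 12 were lower and none was higher (median -0.40), and 9 were lower on deposited TPM. Nd3, Nd2 and Nd1 of complex I (mt-Nd3, mt-Nd2 and mt-Nd1) had differences of -0.58, -0.58 and -0.54, and of -0.35, -0.35 and -0.32 on deposited TPM. The calls of mt-Nd2 and mt-Nd1 were lost without the filter on low genes (adjusted p = 0.078 and 0.15), and that of mt-Nd3 in the fit of 62 libraries (0.053).

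Ribosomal protein genes rose as a group by small amounts. Of 50 tested genes 45 were higher and none was lower, with a median of 0.25, beside the 21.1% of all genes called higher. On deposited TPM the count was 49 and the median 0.48. Rpl12 rose by 0.48 ± 0.048 (SE, adjusted p = 3.09e-05), Rps27 by 0.32 ± 0.034 (SE, adjusted p = 3.92e-05) and Rpl23 by 0.29 ± 0.035 (SE, adjusted p = 9.7e-05). Rpl3 read 87.6, 59.97, 68.8, 90.1 and 71.5 in CAC and 42.2, 46.95, 43.4, 44.8 and 42.8 in NCAC hearts and rose by 0.75 ± 0.10 (SE, adjusted p = 0.000183), whereas its striated muscle copy Rpl3l fell from 262 to 326 in NCAC to 195 to 241 in CAC hearts (-0.44 ± 0.068 (SE, adjusted p = 0.000476); -0.21 on deposited TPM). Both directions held without overlap between the arms, and Rpl3 stayed below Rpl3l in level per length in all 10 hearts.

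The ubiquitin ligases best known from muscle wasting, atrogin-1 and MuRF1, were not called. Atrogin-1 (Fbxo32) read 47.3, 54.1, 33.1, 59.2 and 48.5 in CAC and 59.2, 46.8, 43.96, 40.04 and 44.02 in NCAC hearts, a difference of 0.04 ± 0.15 (SE, adjusted p = 0.868), and MuRF1 (Trim63) differed by 0.10 ± 0.094 (SE, adjusted p = 0.427), called only on deposited TPM (0.32). Of 23 atrophy and ubiquitin genes 5 were higher and 4 lower, near the 21.1% and 20.5% of all genes, and on deposited TPM 10 were higher and 3 lower. Another F-box protein, Fbxo31, rose by 1.18 ± 0.15 (SE, adjusted p = 0.000137) and the translation repressor Eif4ebp1 by 0.69 ± 0.082 (SE, adjusted p = 8.76e-05), and the caveolar protein Murc fell by 0.61 (0.39 on deposited TPM). Of 32 proteasome subunits 10 were higher and 2 lower, and 29 and 0 on deposited TPM, with Psmc1, Psmb4 and Psmd4 at 0.36, 0.22 and 0.42 (0.59, 0.44 and 0.64 on deposited TPM).

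Of 29 autophagy and lysosome genes 7 were higher and 4 lower (20 and 2 on deposited TPM), beside 21.1% and 20.5% of all genes. The lysosomal membrane protein Lamp2 rose by 0.61 ± 0.040 (SE, adjusted p = 1.69e-06) and the protease Ctsb by 0.50 ± 0.036 (SE, adjusted p = 3.65e-06), while Pink1, a kinase that marks damaged mitochondria, fell by 0.65 (0.43 on deposited TPM). The amino acid transporter chain Slc3a2 read 42.98, 41.2, 40.1, 37.6 and 35.8 in CAC and 13.6, 14.7, 13.998, 16.3 and 13.8 in NCAC hearts and rose by 1.39 ± 0.062 (SE, adjusted p = 1.72e-07). It heads the list of ATF4 and endoplasmic reticulum stress genes, of which 10 of 28 were higher and 3 lower (15 and 0 on deposited TPM). Asparagine synthetase (Asns) rose by 0.64 ± 0.076 (SE, adjusted p = 8.85e-05), a step that ATF4 is known to control. Heat shock genes had 7 of 15 lower and 1 higher with a median of -0.13, and 3 lower and 2 higher with a median of 0.08 on deposited TPM. Hsph1, Hspa4l and the mitochondrial chaperone Hspd1 fell by 0.78, 0.50 and 0.54, and by 0.30 and 0.32 on deposited TPM for the last pair.

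**Figure D4:**
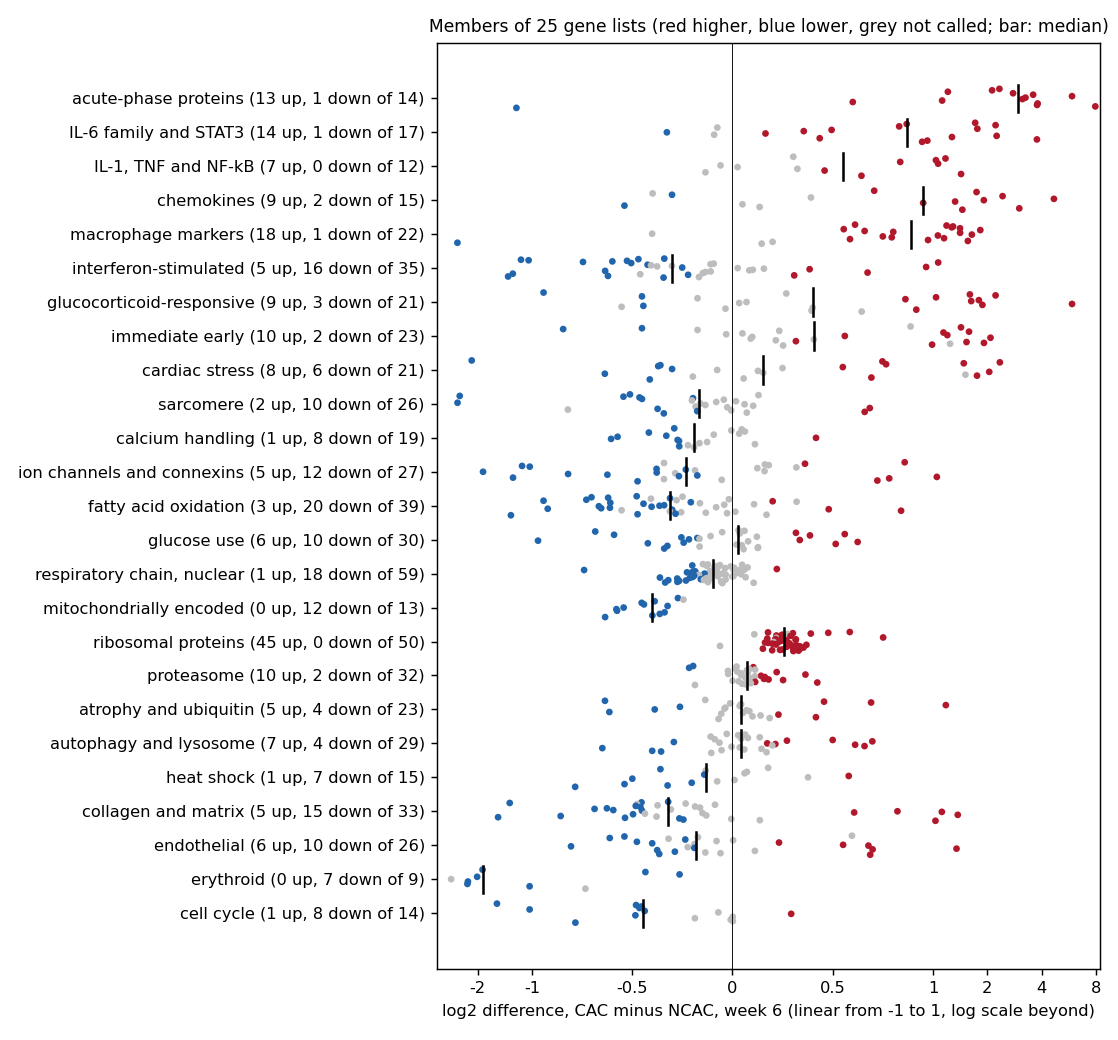
Each point is a tested member of 1 of 25 gene lists, with its log2 difference of CAC minus NCAC at week 6 on an axis that is linear between -1 and 1 and logarithmic beyond, and a bar marks the list median. Ribosomal protein genes lie in a narrow band around 0.25, while the acute-phase list reaches 7.92.

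Apelin and its receptor fell together. Aplnr (chr2:85136225-85139923, plus strand), the receptor on endothelial cells, read 0.917, 1.9, 3.5, 2.35 and 2.05 in CAC and 15.7, 29.5, 28.4, 13.9 and 16.3 in NCAC hearts, a difference of -2.78 ± 0.25 (SE, adjusted p = 1.54e-05). Apelin itself (Apln) read 0.199, 0.593, 0.427, 0.529 and 0.687 and 6.58, 9.62, 10.2, 5.96 and 5.77, a difference of -2.51 ± 0.16 (SE, adjusted p = 1.25e-06), and no CAC heart reached 1 rescaled TPM. Of 26 tested endothelial genes 10 were lower and 6 higher (median -0.18), beside 20.5% and 21.1% of all genes. On deposited TPM 4 were lower and 7 higher, with a median of 0.04. The junction protein Cdh5 fell by 0.61 (0.39 on deposited TPM) and the growth factor receptor Kdr by 0.80, while Plvap, found in fenestrated vessels, rose by 1.35 ± 0.11 (SE, adjusted p = 6.08e-06). Summed endothelial markers ran from 1578 to 1719 in CAC and from 1802 to 1999 in NCAC hearts, and their part in the falls of Aplnr and Apln was not tested. The oxygen sensor Egln3 fell by 1.28 and the vasodilator adrenomedullin (Adm) rose by 0.54 ± 0.086 (SE, adjusted p = 0.000593). Both are of a hypoxia list with 5 of 16 higher and 3 lower, beside 21.1% and 20.5% of all genes. On deposited TPM the counts were 9 and 1. The mitochondrial protein Higd1a of that list, lower at -0.29, was not called on deposited TPM (-0.07, adjusted p = 0.23).

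Extracellular matrix genes were more often lower, with 15 of 33 lower and 5 higher (median -0.32), but 5 and 5 on deposited TPM. The small proteoglycan decorin (Dcn) rose from 372 to 459 in NCAC to 634 to 866 in CAC hearts (0.82 ± 0.081 (SE, adjusted p = 2.51e-05)), elastin (Eln) rose by 1.12 ± 0.13 (SE, adjusted p = 8.14e-05) and the crosslinking enzyme Lox by 1.37 ± 0.19 (SE, adjusted p = 0.00023). Against these, Col15a1 and periostin (Postn) fell by 1.33 and 1.54. The main fibrillar collagen Col1a1 had a difference of -0.48 ± 0.18 (SE, adjusted p = 0.0507), just outside the threshold, and was called in 6 other fits, such as that without NCAC replicate 5 (-0.60, adjusted p = 0.016). Stromelysin (Mmp3) read 19.7, 26.98, 25.3, 29.9 and 10.7 in CAC and 1.26, 0.864, 0.918, 0.969 and 1.35 in NCAC hearts, a rise of 3.43 ± 0.22 (SE, adjusted p = 1.71e-06), and its inhibitor Timp1 rose by 1.703 ± 0.17 (SE, adjusted p = 2.59e-05), while the membrane protease Mmp15 fell by 1.05. Of the secreted Wnt antagonists Sfrp1, Frzb and Dkk3 rose by 1.16, 0.60 and 0.58 and Wif1 fell by 1.17.

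Red cell transcripts were lower in CAC hearts. Of 9 tested genes 7 fell and none rose, with a median of -1.88. The beta globin Hbb-bs read 325, 989, 707, 369.5 and 761 in CAC and 2681, 8669, 2841, 2140.3 and 1150.3 in NCAC hearts, a difference of -2.26 ± 0.48 (SE, adjusted p = 0.00354), and the first enzyme of red cell haem synthesis, Alas2, differed by -1.88 ± 0.45 (SE, adjusted p = 0.00677). The globin genes are close copies. Haemoglobin transcripts took 0.153% ± 0.0660 of all TPM in CAC and 0.733% ± 0.649 in NCAC hearts (exact permutation p = 0.0159), where NCAC replicate 2 stood at 1.86%, and the p became 0.0556 without CAC replicate 1 or replicate 4. Blood left in the hearts was not measured and its part was not tested. Bpgm, a red cell enzyme, fell by 0.43 but was not called on deposited TPM or in the fits of 61 and 62 libraries (adjusted p = 0.14, 0.063 and 0.074).

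Of the iron list 6 of 12 were higher and 1 lower. Hepcidin (Hamp), the hormone that blocks iron export, read 12.2, 6.39, 6.12, 2.89 and 2.02 in CAC and 0.352, 0.21, 0.224, 0 and 0.378 in NCAC hearts, a rise of 2.305 ± 0.33 (SE, adjusted p = 0.000287), and transferrin (Trf) rose by 1.42 ± 0.20 (SE, adjusted p = 0.000241). Cell cycle genes were low and fell further, with 8 of 14 lower and 1 higher (median -0.45) and 19 more below the filter. Cyclin D1 (Ccnd1) read 4.19, 5.49, 5.38, 5.81 and 8.14 and 13.8, 25.7, 19.2, 23.1 and 14.5, a difference of -1.56 ± 0.18 (SE, adjusted p = 8.39e-05), and the nucleotide enzyme Rrm2 and the replication protein Mcm2 fell by 0.78 and 0.44 (0.28 for Mcm2 on deposited TPM). Among 11 imprinted genes the growth inhibitor Cdkn1c fell by 0.96 and the noncoding RNA H19 rose by 1.94 ± 0.19 (SE, adjusted p = 2.36e-05).

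Among the 10 largest rises and falls, some genes stood outside these lists. Clca3a1, of the family of calcium-activated chloride channel regulators, read 23.6, 12.1, 12.04, 24.4 and 11.2 in CAC and 0.357, 0.277, 0.129, 0.348 and 0.265 in NCAC hearts, a rise of 3.72 ± 0.21 (SE, adjusted p = 7.8e-07). Nrep read 2.25, 3.52, 3.4, 4.45 and 4.23 and 19.2, 23.5, 20.5, 16.2 and 17.2 and fell by 2.16, and Plekhh1 read 0.872, 0.497, 1.2, 0.389 and 1.77 and 6.65, 7.15, 7.3, 6.18 and 4.5 and fell by 1.95, both without overlap (adjusted p = 1.59e-06 and 1.91e-05).

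Markers of other cell types were summed in each heart beside these results. The fibroblast list overlapped, at 1344 to 1879 in CAC and 1429 to 1774 in NCAC hearts. The smooth muscle and pericyte sum was lower, at 478 to 539 and 599 to 879. The adipocyte sum was higher, at 73.7 to 94.6 and 43.4 to 59.5, although the fat hormone genes Adipoq and Lep were below the filter. Of 10 smooth muscle and pericyte genes 5 were lower and 1 higher (median -0.08), but 2 and 4 on deposited TPM (median 0.13). Of 9 fibroblast genes 3 were lower and 2 higher, and 1 and 2 on deposited TPM. Within these lists the contractile regulator Smtn fell by 0.64, Rgs5 by 0.30 and Tagln rose by 0.64, and the lipid genes Cidea and Fasn rose by 0.66 and 1.24. The fall of Rgs5 was not called on deposited TPM (-0.08) and that of Smtn was 0.42 there. The adipocyte genes Cfd and Car3, at 1.64 and 0.91, overlapped between the arms and lost their calls in 4 and 12 other fits, such as that without NCAC replicate 5 (adjusted p = 0.054 and 0.11). The melanocyte antigen Mlana read 3.63, 2.14, 2.23, 2.11 and 1.7 in CAC and 0, 0.138, 0.147, 0.466 and 0.414 in NCAC hearts, a rise of 1.44 ± 0.15 (SE, adjusted p = 3.57e-05). Mlana passed the filter through the CAC hearts alone. It was the only gene called of 3 tested in the melanocyte list, whose median was 0.04. The pigment genes Tyr and Tyrp1 were at 0 in all 10 hearts. The part of these shifts in the results above was not tested.

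The same CAC hearts often stood at the extremes of the larger differences. Of 241 genes at least 2-fold higher, called and without overlap, CAC replicate 1 was the highest CAC heart in 141 (58.5%) and replicate 5 the lowest in 136 (56.4%). Of 116 genes at least 2-fold lower, replicate 1 was the lowest in 65 (56.0%) and replicate 5 the highest in 48 (41.4%). Among the 23 called fatty acid genes replicate 5 was the highest CAC heart in 19, but replicate 3 was the lowest in 12 and replicate 1 in 10. Other groups had other extremes: replicate 3 was the lowest in 4 of the 7 called circadian genes, and replicate 2 the highest in 4 of the 7 called red cell genes. Serpina3n runs between these hearts, from 1569.6 in replicate 1 to 419 in replicate 5, and so does Mylk4 in reverse, from 8.51 to 33.4. The labels used here give no measure of wasting for these mice.

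The mock-treated hearts of week 6 were measured on the same scale. Both tumour comparisons with Con share those 5 hearts, so they are given side by side. In the fit of 61 libraries, the CAC hearts differed from the Con hearts in 4682 of 12477 genes (37.5%), 2432 of them upward (19.5%). Between NCAC and Con, limma called 0 genes in either direction, and 359 (2.88%) had an unadjusted p below 0.05. A fit of those 10 libraries alone also called 0, with 617 of 11569 genes at an unadjusted p below 0.05. Serpina3n averaged 888 ± 446 in CAC, 2.41 ± 0.908 in NCAC and 3.39 ± 1.4 in Con hearts (SD, n = 5 each). Mylk4 averaged 18.98 ± 9.38, 109.9 ± 20.5 and 116 ± 17.5, and Kcnip2 27.1 ± 8.9, 97.4 ± 5.72 and 101 ± 6.91. For Casq1 the Con hearts lay between the arms, with 2.27 to 6.47 in CAC, 13.8 to 18.7 in Con and 20.4 to 55.3 in NCAC hearts.

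More genes differed between the arms at each later week. In the same fit 92 genes (0.737%) were called at week 2, 63 of them higher in CAC. At week 4 there were 1236 higher (9.91%) and 1011 lower (8.1%), at week 6 there were 2606 (20.9%) and 2479 (19.9%), and at week 8, where the CAC group has 7 libraries, 3391 (27.2%) and 3052 (24.5%). Calls in either direction thus took 18% of genes at week 4, 40.8% at week 6 and 51.6% at week 8. Tested directly, the CAC minus NCAC difference was higher at week 6 than at week 2 in 974 genes (7.81%) and lower in 911 (7.3%). Against week 4 it was higher in 10 (0.0801%) and lower in 15 (0.12%), and against week 8 higher in 65 (0.521%) and lower in 15. Serpina3n differed by 1.51, 5.14, 7.91 and 8.07 at weeks 2, 4, 6 and 8, and Mylk4 by -0.96, -1.53, -2.58 and -3.95.

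Fatty acid genes were among those that parted between week 4 and week 6. The 15 genes whose difference was lower at week 6 (0.12%) held 4 of the 39 fatty acid genes, Cpt2, Hadha, Hadhb and Etfdh, which were picked out here after their values were seen. Cpt2 differed by 0.01 at week 4 and by -0.61 at week 6, a change of -0.62 (adjusted p = 0.0147). Ephx2, which handles lipid epoxides, went from 0.10 to -0.55 (adjusted p = 0.0147), the mitochondrial protein Vwa8 from 0.19 to -0.51 (0.0147), the cholesterol enzyme Fdft1 from -0.07 to -0.72 (0.0203) and Retnla from 0.16 to -2.58 (0.0375). Upward, Fetub went from 0.73 to 2.17 (0.037), Srpx from 0.96 to 2.24 (0.037), the fatty acid desaturase Scd1 from -0.19 to 0.79 (0.0147) and Mctp1 from 0.32 to 1.22 (0.0317). On deposited TPM no gene was called in this comparison of weeks, and with a pseudocount of 0.1 the counts were 1 and 9.

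The number of genes whose difference changed between week 6 and week 8 varied with the fit. It was 65 higher and 15 lower at week 6 as reported, 21 and 0 on deposited TPM, 13 and 0 with the replicate number as a block, and 0 and 0 when only the 4 groups of these weeks were fitted. Every call of a higher difference at week 8 was thus lost in the latter 3 fits. Myh6 differed by -0.04 at week 6 and -0.85 at week 8 (adjusted p of the difference = 0.0123), and the tubulins Tuba4a and Tuba8 went from -0.03 and -0.26 to -0.998 and -1.17 (0.0417 and 0.0415). The difference of the leptin receptor Lepr was 1.12 at week 6 and 0.36 at week 8 (0.0489). The differences of the uncoupling protein Ucp2, the phosphatase Acp5, the receptor chain Il3ra and the platelet chemokine Ppbp were higher at week 8, at 1.05, 1.24, 0.54 and 0.48 against 0.17, 0.56, -0.12 and -0.42 at week 6. The counts also rest on CAC replicate 3 of week 8: without it 464 genes were higher and 262 lower at week 6 in place of 65 and 15, and these 8 genes were called in both.

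**Figure D5:**
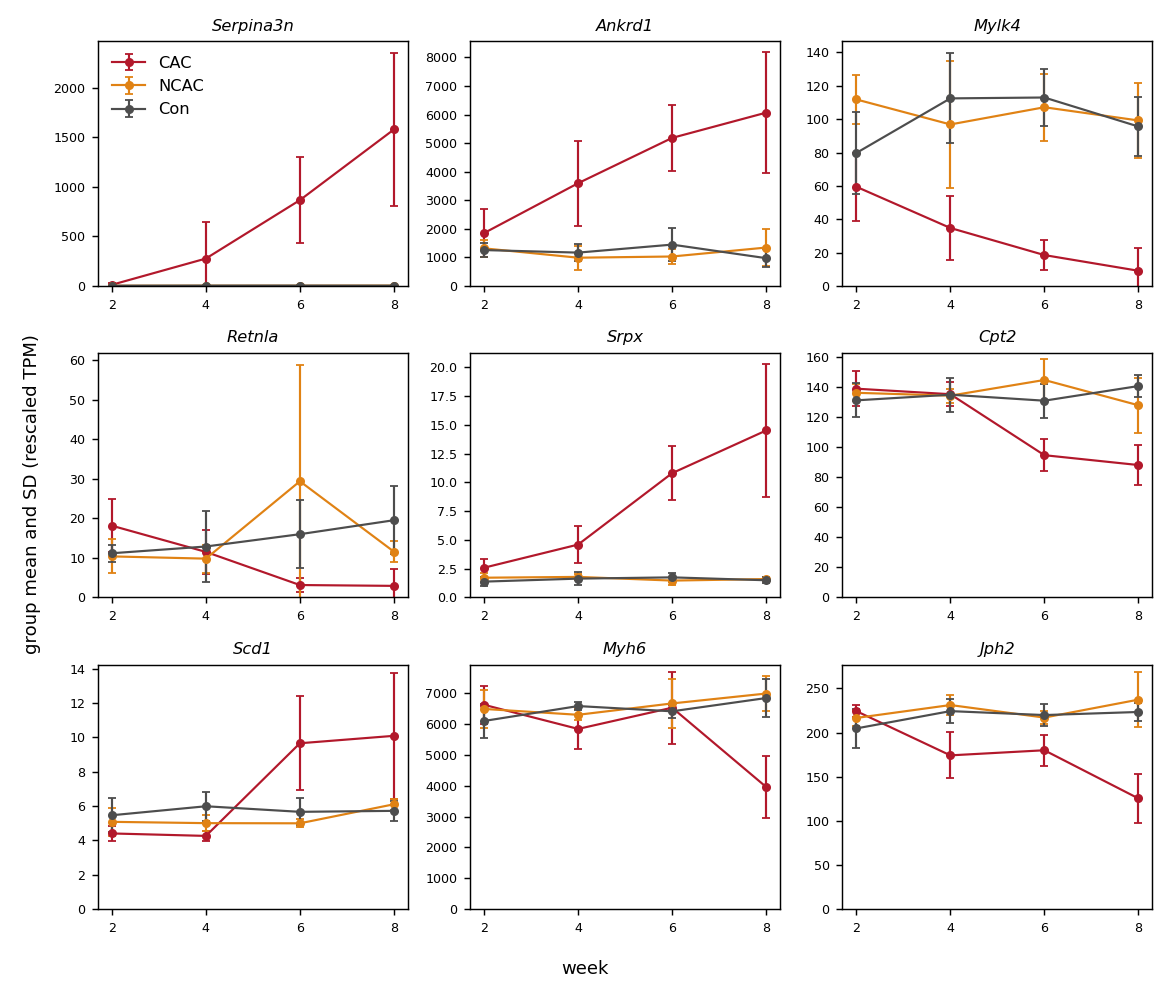
Group means with SD (rescaled TPM on the 61-library scale) for 9 genes at weeks 2, 4, 6 and 8 in CAC, NCAC and Con hearts. Serpina3n and Ankrd1 part from both other arms by week 4, Cpt2 and Retnla at week 6, and Myh6 and Jph2 show their largest CAC falls at week 8.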

How the data were processed

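Per the labels, RNA was extracted with Trizol and sequenced on a NovaSeq 6000 after a stranded TruSeq mRNA kit; per the submitters' processing notes the build was mm10. Aligner, counting tool and annotation: not given in the sources used here. TPM values were deposited by the authors. They sum to the same total in every library and hold no read totals, so depth is not known. The p-values rest on the spread between hearts. Each TPM was divided by its library's median ratio over 10840 genes with at least 1 TPM in all 10 libraries. The log2(rescaled TPM + 1) was tested with limma 3.58.1 in R 4.3.3 (trend, Benjamini-Hochberg, threshold 0.05, genes with at least 1 in 5 libraries). The code was run on simulated data in which only a small part of the genes changed, in both directions. That run cannot show how the rescaling does where many genes differ, as here. A fit of 61 libraries in 12 groups, without mock replicate 2 of week 4, gave the other weeks and the tests between weeks. In that library mitochondrially encoded transcripts took 89.1% of TPM and 8880 genes reached 1 TPM. Its RNA quality is not known. Library shares were compared by an exact permutation test (two-sided). The replicate numbers did not pair the arms. Figures used Python 3.11.15 with matplotlib 3.10.9. Positions are from GENCODE M21, matched by symbol for 11417 of the 11801 tested genes.

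Named were the 10 largest rises and falls called without overlap and with a mean of at least 1 (predicted genes left out), up to 3 called members of each list by p (all of them in lists with at most 5 calls), 28 genes named whatever their result, and the 4 largest called differences between weeks in each direction. Other named genes are list members chosen after their values were seen. A few genes that the rule picks are not reported here. The members and the lists were chosen with earlier results of these data known.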

Additional observations from a re-analysis of the deposited data

Results flagged for a closer look

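Single hearts stood apart from the other 4 of their arm in 9 of 430 sets of 5 values looked at (215 named genes in each arm), or 2.09%, where chance alone gives about 5%. In CAC hearts these were Mt1 and Gja1, high in replicate 1 (2348) and replicate 2 (517), the receptor Il1r1 and the adaptor Myd88, low in replicate 5 (7.84 and 12.2), and the clock gene Per1, low in replicate 3 (15.8). In NCAC hearts they were Ankrd2, high in replicate 2 (0.549), Ccl8 and Scd1, high in replicate 4 (4.26 and 5.55), and Pdk4, high in replicate 1 (437.6). The haemoglobin share of NCAC replicate 2 (1.86%) also stood apart from the other 4 (0.201% to 0.629%). Pdk4 and Per1 were not called between the arms.

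The difference between the arms changed from week 4 to week 6 for the fatty acid genes Cpt2 (-0.62), Hadhb (-0.56), Etfdh (-0.53) and Hadha (-0.50), for Retnla (-2.74), Vwa8 (-0.70), Fdft1 (-0.65) and Ephx2 (-0.65), and upward for Fetub (1.44), Srpx (1.28), Scd1 (0.98) and Mctp1 (0.90), as log2 differences of week 6 minus week 4 (adjusted p of the interaction 0.0147 to 0.0490). Against week 8 it was higher at week 6 for Tuba4a (0.97), Tuba8 (0.91), Myh6 (0.81), Lepr (0.76), the junctional protein Jph2 (0.66) and troponin I (Tnni3, 0.40), and lower for Ppbp (-0.90), Ucp2 (-0.88), Acp5 (-0.68) and Il3ra (-0.66), with adjusted p of 0.0123 to 0.0492.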

How the results depend on the processing

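Counts at week 6 within 1.5 times of those reported were found under every alternative except that 2-fold falls numbered 211 with a pseudocount of 0.1, and that deposited TPM gave 5473 genes higher, 812 lower, 399 at least 2-fold higher and 79 at least 2-fold lower. Leaving out each heart gave 2037 to 2423 genes higher, 2002 to 2433 lower, 203 to 264 at least 2-fold higher and 117 to 138 at least 2-fold lower. The share of mitochondrially encoded transcripts then differed by -7.41 to -5.88 percentage points and that of haemoglobin by -0.712 to -0.299, the latter no longer past the threshold at -0.560 and -0.565 without CAC replicate 1 or 4. Against week 2, deposited TPM gave 1747 higher and 308 lower, against week 4 it gave 0 and 0, and against week 8, 21 and 0. Against week 4 a pseudocount of 0.1 gave 1 and 9. Against week 8, the 4 groups of the 2 weeks alone gave 0 and 0, the replicate block 13 and 0, and leaving out CAC replicate 3 of week 8, chosen after seeing the data, 464 and 262. With the replicate block, 2289 genes were higher and 2256 lower at week 6. Correlations of same-numbered hearts were -0.082 to 0.097, so the numbers were not taken as pairs. Directions turned on deposited TPM for Myh6 (0.18), Tuba4a (0.19), Il3ra (0.043), Tnni3 (0.0485), Pln (0.098), Ryr2 (0.059), Lifr (0.1119) and Il11ra1 (0.1362), and for Myh6 with array weights (0.047). Leaving out each heart took Myh6 from -0.102 to 0.0775, Fbxo32 from -0.0414 to 0.164 and Tuba4a from -0.0995 to 0.0346. Of these genes, Tnni3 alone was called in the reported fit. The causes were not tested. Depth is not known, so genes at 0 carry no limit.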

Other observations

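Genes outside the lists, picked here after their values were seen, were also far apart between the arms. The membrane proteins Tmem176a and Tmem176b, found in macrophages and dendritic cells, read 21.2 to 32.2 and 68.4 to 88.96 rescaled TPM in CAC and 3.98 to 4.54 and 16.5 to 20.6 in NCAC hearts, log2 differences of 2.35 and 2.004. The shared receptor chain for interleukin-3, interleukin-5 and GM-CSF, Csf2rb, and its near copy Csf2rb2 rose by 2.37 ± 0.10 (SE, adjusted p = 1.25e-07) and 2.54 ± 0.13 (SE, adjusted p = 5.33e-07), and reads may have been divided between them. The transcriptional regulator Sbno2 rose by 2.05 ± 0.084 (SE, adjusted p = 1.25e-07), the lipid carrier Apod by 3.29 ± 0.20 (SE, adjusted p = 1.16e-06) and the secreted chaperone clusterin (Clu) by 2.76 ± 0.21 (SE, adjusted p = 5.05e-06). Clusterin read 1438, 846, 749, 1175 and 675 in CAC and 181, 112, 111, 149 and 146 in NCAC hearts, with replicate 1 highest in both arms.

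Falls were smaller on this scale. They included Ano10, a membrane protein, which read 15.4, 17.7, 18.1, 15.98 and 16.7 in CAC and 68.9, 60.2, 60.6, 61.04 and 49.5 in NCAC hearts (-1.77 ± 0.079 (SE, adjusted p = 1.72e-07)). The intermediate filament nestin (Nes), the endothelial repressor Bcl6b and the chemokine receptor Cxcr4 fell by 1.79, 1.87 and 1.33. All 11 genes were without overlap between the arms, and none was among the groups described above.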
